A study of Mus musculus with 3 samples.

Results

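Non-classical monocytes, the vessel-patrolling blood monocytes marked in mice by Ace, Treml4 and Adgre4, are described here across 3 single-cell RNA libraries of tumour-infiltrating CD45+ (haematopoietic) cells. A barcode was counted as one of them when it held at least 1500 UMIs (unique molecular identifiers, each 1 captured RNA molecule), under 10% mitochondrial UMIs, 3 or more UMIs of Ace, Treml4 and Adgre4 together, at least 1 UMI of Csf1r, and none of C1qa, Flt3 or Cd3e. This gate held 302 of the 10243 deposited barcodes, or 3.71% of the 8139 that passed the filters on UMIs and mitochondrial share. They were compared with 988 classical monocytes, which had at least 3 UMIs of Ly6c2, at least 3 of Chil3 and none of Ace, Treml4 or Adgre4. The cells came from C57BL/6 mice bearing subcutaneous B16F10 tumours, a melanoma line of the same strain. All mice received Pmel-1 cytotoxic T lymphocytes (CTL), T cells specific for a melanocyte antigen, by vein 9 days after inoculation. Tumours were taken at days 3, 7 and 14 after transfer, with cells of 3 mice mixed in equal numbers into the 1 library of each day. Mouse age is not given. Untransferred mice were not analysed here, and time after transfer, tumour age and library cannot be told apart.

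The day 3, day 7 and day 14 libraries held 33096709, 29547433 and 35742070 UMIs in 3656, 3038 and 3549 barcodes. Non-classical cells had median totals of 8295.5, 8853 and 9174 UMIs, and classical cells 10478, 10990 and 11753. No non-classical cell carried a barcode that also occurred in another library, while 10, 10 and 6 classical cells did. Doublets were kept: a caller's automatic threshold marked 2, 32 and 4 barcodes, too few to rely on, and removing the highest scores as an alternative took out 2, 0 and 1 non-classical cells. Values below are CPM, the usual depth-scaled counts: the UMIs of a gene summed over the cells of a gate in a library, scaled to 1000000 UMIs of those cells. Intervals are 95% intervals and cover counting error only.

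Monocytes that leave the bone marrow with high Ly6C and Ccr2 are called classical, and enter inflamed tissue and tumours. Some convert in the blood to Ly6C-low, Cx3cr1-high non-classical cells, which crawl along the vessel wall and clear debris. In mice this conversion needs the nuclear receptor Nr4a1. Csf1r encodes the receptor for macrophage colony-stimulating factor.

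The 3 genes of the gate are Ace, the angiotensin-converting enzyme, Treml4, a receptor for dying cells, and Adgre4, an adhesion G protein-coupled receptor. By the gene IDs of the files, in GENCODE M21 on mm10, Ace is at chr11:105967945-105989964, Treml4 at chr17:48264295-48275360 and Adgre4 at chr17:55749984-55853662, all on the plus strand. RefSeq promoter windows (GRCm38.p6, from 250 bases before to 50 after the gene start) were searched on both strands for 3 motifs. AAAGGTCA, bound by Nr4a1, was in 0.84% of the 833 windows of genes higher in non-classical cells, 1.12% of the 804 of genes lower, 0.95% of the 6735 of genes tested and 1.46% of all 27025. The octamer ATGCAAAT, bound by Pou2f2, was in 1.20%, 1.37%, 1.35% and 1.75% of these windows. GAGGAAGT, bound by the myeloid factor PU.1, was in 5.76%, 3.73%, 3.79% and 3.28%. Among the windows of the 3 gate genes, that of Adgre4 held 1 match, to GAGGAAGT, which overlaps no other of these motifs there. It is shown as the regulatory sequence of a gene that chose the cells, with the PU.1 core, which lies on the minus strand and starts 41 bases after the gene start, in capitals (chr17:55749734-55750033, plus strand).
Adgre4: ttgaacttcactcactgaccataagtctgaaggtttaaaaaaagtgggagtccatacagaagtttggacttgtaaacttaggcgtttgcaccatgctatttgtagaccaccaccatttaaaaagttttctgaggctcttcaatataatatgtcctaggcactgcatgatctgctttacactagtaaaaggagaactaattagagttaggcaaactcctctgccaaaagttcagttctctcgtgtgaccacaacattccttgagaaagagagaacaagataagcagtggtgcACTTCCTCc

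The gate genes chose the cells, so their levels are a description. Ace stood at 286, 324 and 304 CPM in non-classical cells at days 3, 7 and 14, Treml4 at 182, 204 and 204 CPM, and Adgre4 at 186, 180 and 192 CPM. Per library, 44, 40 and 45 of the 110, 81 and 111 cells held all 3 transcripts. All 3 genes were at 0 in classical cells by the rule. They were also at 0 in T cells, a class gated by 2 or more Cd3e UMIs without Csf1r or the gate genes, and there too the gate sets it. The markers Gngt2, a G protein gamma subunit, and Ear2, a ribonuclease, were not part of the gate. Gngt2 stood at 922, 952 and 970 CPM in non-classical cells, against 117, 136 and 178 CPM in classical cells and 17.9, 16.2 and 24.5 CPM in T cells. Ear2 stood at 167, 193 and 138 CPM in non-classical cells, against 15.3, 14.8 and 7.64 CPM in classical cells and 0.573, 0.205 and 0.485 CPM in T cells. After each cell was thinned to 1500 UMIs, Ear2 was seen in 23.6%, 24.7% and 18.9% of non-classical cells and in 0% of T cells at all 3 days (unthinned 57.3%, 54.3% and 56.8%, against 0.223%, 0.299% and 0.669%). Median totals of the T cells were 9683, 10071 and 8284 UMIs. Ear2 has close paralogs, but Ear1 held 2 UMIs and Ear6 and Ear10 none in these cells.

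The label goes with these markers only in part: many of the cells also carried RNA typical of classical monocytes. Ly6c2, which encodes the Ly6C antigen, was found in 80, 63 and 66 of the cells, and 60, 46 and 38 of them held 3 or more UMIs. Of the 302 cells, 42, 37 and 28 at days 3, 7 and 14 met both the Ly6c2 and Chil3 minimum of the classical gate. Ly6c2 summed to 853, 883 and 335 CPM in non-classical cells, against 1353, 1213 and 874 CPM in classical cells. In T cells it stood at 543, 650 and 343 CPM, so the transcript is not limited to monocytes here. Chil3, a chitinase-like protein of immature myeloid cells, stood at 691, 1313 and 1115 CPM in non-classical cells, against 1430, 1943 and 1680 CPM in classical cells and 7.31, 2.77 and 3.39 CPM in T cells. Cells with 3 or more Ly6c2 UMIs made up 54.5% of the day 3 members (44.8 to 64.1), 56.8% of the day 7 members (45.3 to 67.8) and 34.2% of the day 14 members (25.5 to 43.8). Thinned to equal depth, 43.6%, 44.4% and 27.9% of the cells held a Ly6c2 UMI.

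The cells were split by their own Ly6c2 UMIs after the data had been seen, as a description with no test. Cells with none, with 1 or 2, and with 3 or more had median totals of 6022 to 7388, 7811.5 to 9837 and 9467 to 9985 UMIs over the days. Cells without Ly6c2 differed from cells with 3 or more UMIs in the next 4 genes, and cells with 1 or 2 did not always lie between them. Nr4a1 was at 978, 1347 and 1174 CPM in cells without Ly6c2, against 668, 736 and 584 CPM in cells with 3 or more UMIs. Pou2f2, the octamer-binding factor Oct-2, was at 411, 758 and 474 CPM, against 174, 365 and 264 CPM. Cd300e, an activating receptor of myeloid cells, was at 44.0, 23.0 and 56.4 CPM, against 1.52, 4.34 and 2.52 CPM. F13a1, a coagulation factor of classical monocytes, was at 4.89, 45.9 and 70.5 CPM in cells without Ly6c2, against 180, 213 and 149 CPM. For each of these 4 genes the values of the end classes did not overlap over the 3 libraries. Other genes of classical monocytes followed F13a1 only in part. Fn1 stood at 44.0, 99.5 and 212 CPM in cells without Ly6c2, against 293, 380 and 481 CPM in cells with 3 or more UMIs. Vcan stood at 9.78, 314 and 206 CPM, against 183, 213 and 292 CPM, so it was higher without Ly6c2 at day 7. Ccr2 stood at 293, 719 and 547 CPM, against 581, 710 and 609 CPM. The gate asks for at least 3 UMIs of its genes at any depth, and cells without Ly6c2 had lower totals. The CPM of the gate genes thus depend on depth here and are only a description. Ace stood at 508, 444 and 401 CPM in cells without Ly6c2, against 201, 263 and 259 CPM in cells with 3 or more UMIs.

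**Figure D1:**
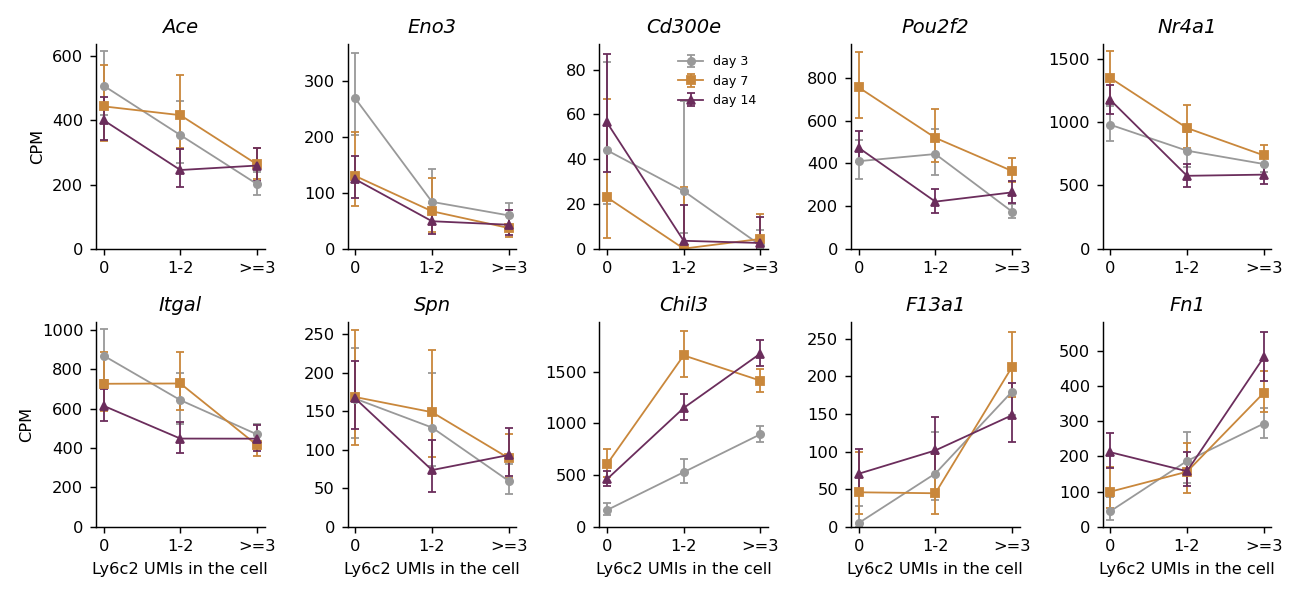
CPM of 10 genes in non-classical cells split by their own Ly6c2 UMIs (0, 1 or 2, 3 or more), with 1 line per library and 95% Poisson intervals. Eno3, Pou2f2, Nr4a1, Itgal and the gate gene Ace are highest in cells without Ly6c2 in at least 2 of the libraries. F13a1 is highest in cells with 3 or more UMIs in all 3.

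Cells close to the threshold were compared on both sides of it. Per library 33, 20 and 25 of the members had exactly 3 UMIs of the gate genes, and 46, 42 and 43 cells passed every other criterion with 2. Gngt2 stood at 721, 560 and 575 CPM just inside the gate, against 482, 458 and 533 CPM just outside. Nr4a1 stood at 608, 436 and 377 CPM inside, against 438, 539 and 506 CPM outside. The marker Ear2 stood at 113, 19.8 and 70.4 CPM inside, against 60.3, 81.0 and 32.8 CPM outside, so it was lower inside at day 7. Ly6c2 was higher inside in each library, at 768, 1264 and 596 CPM, against 663, 821 and 481 CPM. Ccr2 stood at 680, 986 and 546 CPM inside, against 605, 1085 and 732 CPM outside. Of the cells with 3 or more UMIs of the gate genes, 15, 6 and 15 carried C1qa, 2, 5 and 5 carried Flt3 and 12, 3 and 9 carried Cd3e.

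Of the kept barcodes, non-classical cells were 4.05% (3.34 to 4.86) in the day 3 library, 3.14% (2.504 to 3.89) in the day 7 library and 3.90% (3.22 to 4.68) in the day 14 library. These shares could not be told apart at this depth, with a day 14 over day 3 ratio of 0.965 (0.735 to 1.27). Classical cells numbered 452, 271 and 265. As a share of the cells of both gates, non-classical cells held 19.6% (16.4 to 23.1) in the day 3 library, 23.0% (18.7 to 27.8) in the day 7 library and 29.5% (24.95 to 34.4) in the day 14 library. Their number per classical cell was 1.72-fold as high at day 14 as at day 3 (1.25 to 2.36). The ratios of day 7 over day 3, 1.23 (0.875 to 1.72), and of day 14 over day 7, 1.40 (0.992 to 1.98), had intervals that include 1. With 1 library per day none of this has a replicate check, and fewer classical cells cannot be told apart from fewer classical cells with 3 UMIs of each gate gene. Counting only the 50, 35 and 73 members with under 3 Ly6c2 UMIs, the log2 ratio per classical cell at day 14 over day 3 was 1.32, against 0.78 for all members.

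**Figure D2:**
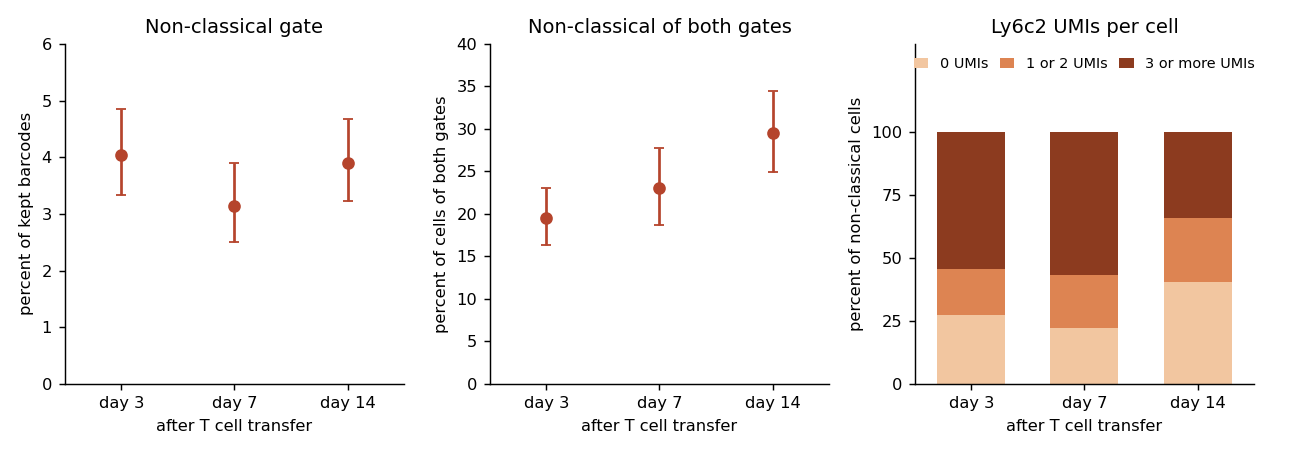
Left and centre, the non-classical share of kept barcodes and of the cells of both gates by day, with 95% Clopper-Pearson intervals. Right, non-classical cells by Ly6c2 UMIs: the part with 3 or more is 54.5%, 56.8% and 34.2% at days 3, 7 and 14.

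The comparison with classical monocytes asks which other genes separate the 2 gates within the tumour. UMIs were summed per gate and library and tested with edgeR's quasi-likelihood test, with the library as a block and p-values adjusted by the Benjamini-Hochberg method over 8387 genes. The 9 genes of the gates were left out. Since the cells were chosen by RNA counts of the same cells, genes that travel with the gate genes differ through that choice. The test says only which mean differences were large against the spread fitted over the 3 libraries. A call does not mean that the difference recurred in each library. Cxcl10 was called higher but stood at 1569 against 1606 CPM at day 7, and the call of Hspb1 rests on 1 cell. At an adjusted p under 0.05, 1072 genes (12.8%) were higher and 1041 (12.4%) lower in non-classical cells, around a median log2 difference of 0.01. Fold changes below are log2 values of non-classical over classical with their standard error.

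All 16 tested genes listed as non-classical identity were higher, with a median log2 difference of 2.32. Among them Eno3, the muscle form of the glycolytic enzyme enolase, stood at 105, 59.2 and 72.3 CPM in non-classical cells, against 5.04, 4.10 and 4.09 CPM in classical cells. Its log2 difference was 4.18 ± 0.20 (SE, adjusted p = 5.8e-11, edgeR), and it was also present in T cells, at 49.0, 43.7 and 80.9 CPM. Spn, the sialoprotein CD43 used to sort these cells, stood at 91.6, 114 and 113 CPM, against 22.1, 9.47 and 12.8 CPM (log2 2.79 ± 0.21). Cx3cr1, the fractalkine receptor, stood at 38.4, 182 and 111 CPM, against 7.74, 37.9 and 11.2 CPM (2.59 ± 0.19). In both genes every non-classical library was above the 3 classical ones, narrowly so for Cx3cr1, and Cx3cr1 was lowest at day 3 in both gates. Cd300e was nearly absent from classical cells, with 41 UMIs in non-classical and 2 in classical cells, a ratio of 91.4 (23.7 to 780). The weakest member was Fcgr4, the Fc receptor of IgG2 antibodies, at 450, 214 and 241 CPM, against 259, 209 and 202 CPM (0.39 ± 0.12, adjusted p = 0.024, edgeR). It lost its call under 7 of 19 alternatives, with adjusted p-values of 5.4e-06 to 0.48.

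The 12 highest genes by the naming rule included Slc12a2, Eno3, Spic, Ear2, Grk3, Hpgd, Spn, Gngt2, Nxpe4, Tiam2 and Slc46a3, with log2 differences of 2.72 to 4.22, and these 11 kept their call under every alternative that could test them. Slc12a2, a sodium, potassium and chloride importer, stood at 22.6, 33.1 and 23.1 CPM, against 2.16, 0.947 and 0.546 CPM. Spic, an Ets factor known from iron-recycling macrophages, stood at 13.8, 16.5 and 15.4 CPM, against 0.540, 0.316 and 1.91 CPM. Grk3, a kinase that desensitises G protein-coupled receptors, stood at 153, 190 and 176 CPM, against 23.0, 16.7 and 9.55 CPM. Hpgd, which inactivates prostaglandins, stood at 62.0, 84.0 and 64.6 CPM, against 11.2, 9.47 and 4.09 CPM. Each of these 4 was far above classical cells in every library. The remaining gene, Hspb1, a small heat shock protein, rests on 1 cell, which held 131 of its 132 UMIs at day 3. Without the day 3 library its log2 difference was 0.53, against 3.29 with it, and it no longer passed.

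Transcription factors of myeloid cells differed in both directions, with 12 of 24 tested higher and 5 lower (median 0.39). Pou2f2 stood at 263, 464 and 324 CPM in non-classical cells, against 38.2, 65.9 and 55.4 CPM in classical cells (2.71 ± 0.10, adjusted p = 3.5e-12, edgeR). Nr4a1 stood at 746, 886 and 783 CPM, against 274, 327 and 335 CPM (1.36 ± 0.08). Pparg, a lipid-sensing nuclear receptor, was higher too (1.99 ± 0.32). Maf, a factor of tissue macrophages, stood at 85.6, 89.6 and 69.4 CPM, against 266, 356 and 258 CPM (-1.83 ± 0.11). Hes1, a target of Notch signalling, stood at 35.4, 88.2 and 61.7 CPM, against 10.1, 12.6 and 9.00 CPM (2.46 ± 0.21). Of 8 tested Notch pathway genes, Hes1 and the receptor Notch2 (0.59 ± 0.13) were higher and the pathway's DNA-binding factor Rbpj was lower (-1.10 ± 0.13).

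Of 16 genes of adhesion and patrolling, 8 were higher and 2 lower. Itgal, the alpha chain of the integrin LFA-1 with which these cells crawl, stood at 577, 529 and 505 CPM, against 160, 107 and 92.8 CPM (2.18 ± 0.10). Its partner chain Itgb2 stood at 406, 423 and 378 CPM, against 413, 420 and 351 CPM (0.03 ± 0.08, adjusted p = 0.85, edgeR). The integrin chain Itgax (1.37 ± 0.23) was higher, while Itgam (-0.38 ± 0.10) was lower. Among 10 tested receptors for chemokines and lipids 3 were higher and 4 lower. S1pr5, a sphingosine 1-phosphate receptor, had 23 UMIs in non-classical and 3 in classical cells, a ratio of 34.2 (10.3 to 178). C5ar1, a complement receptor (-1.67 ± 0.16), and the chemokine receptor Ccr1 (-1.27 ± 0.11) were lower. Ccr2 was close in both gates, at 522, 722 and 588 CPM, against 681, 850 and 708 CPM (-0.30 ± 0.07, adjusted p = 0.0039, edgeR), and it missed the threshold under 4 of 19 alternatives.

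Of 8 Fc receptor genes only Fcgr4 was higher and 4 were lower, led by Fcgr1, the high-affinity receptor (-1.28 ± 0.13). Regulatory receptors were divided, with 6 of 15 higher and 5 lower. Havcr2, which encodes Tim-3 (1.04 ± 0.14), and the TNF receptor Tnfrsf1b (1.10 ± 0.12) were higher, and the CD200 receptor Cd200r1 (-1.59 ± 0.20) and the PD-1 ligand Pdcd1lg2 (-1.39 ± 0.28) were lower. Cd274, the other PD-1 ligand, stood at 558, 207 and 216 CPM, against 504, 266 and 195 CPM (0.00 ± 0.10). In survival and death genes, 4 of 13 were higher and 3 lower. Bcl2 was higher (0.78 ± 0.18) and its relative Bcl2l1 lower (-2.21 ± 0.22), at 11.8, 9.64 and 14.5 CPM, against 57.4, 60.3 and 52.7 CPM.

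**Figure D3:**
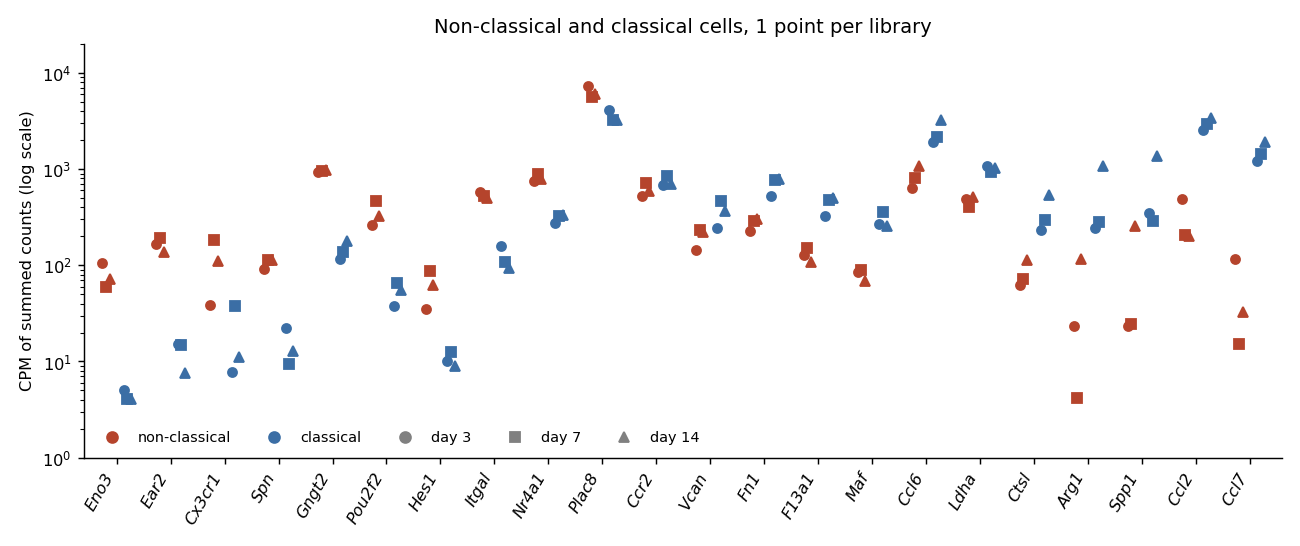
CPM on a log axis of 22 genes in non-classical cells (red, left) and classical cells (blue, right), with 1 point per library and a symbol for each day. Pou2f2 lies between 263 and 464 CPM in non-classical cells and between 38.2 and 65.9 CPM in classical cells, and Ccl7 is on the other side, at 15.2 to 117 CPM against 1225 to 1914 CPM.

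Chemokine genes were mostly lower, with 13 of 15 tested lower and 1 higher (median -1.53). Ccl2, a ligand of Ccr2, stood at 483, 208 and 202 CPM in non-classical cells, against 2521, 2971 and 3424 CPM in classical cells (-3.38 ± 0.21), and 1 cell held 220 of its 491 non-classical UMIs at day 3. Ccl7, another Ccr2 ligand, stood at 117, 15.2 and 32.8 CPM, against 1225, 1438 and 1914 CPM (-4.77 ± 0.31), with 89 of 119 UMIs at day 3 in 1 cell, and its call was lost with the spread fitted robustly. Ccl6 stood at 643, 803 and 1081 CPM, against 1900, 2169 and 3220 CPM (-1.53 ± 0.06). No library of either gate crossed into the range of the other for these 3. Ccl8 had 1 UMI in non-classical and 805 in classical cells, a ratio of classical over non-classical of 181 (32.3 to 7141). The 1 higher gene was Cxcl10, which draws Cxcr3-bearing T cells, at 4313, 1569 and 733 CPM, against 2976, 1606 and 493 CPM (0.36 ± 0.09, adjusted p = 0.0056, edgeR). Its call was lost under 10 of 19 alternatives, 1 of which changed its sign, with adjusted p-values of 1.4e-15 to 0.95. With the spread fitted robustly, or without the library block, 5 and 7 of the 15 chemokines were lower, and none was higher.

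All 14 tested genes of hypoxia and glycolysis were lower, with a median of -0.98. Ldha, lactate dehydrogenase A, stood at 488, 405 and 512 CPM, against 1082, 936 and 1028 CPM (-1.12 ± 0.07). Gapdh stood at 1930.5, 1399.8 and 2035 CPM, against 3521, 3307 and 3799.8 CPM (-1.003 ± 0.07). The glucose transporter Slc2a1 (-1.10 ± 0.13) and the hypoxia-induced Ndrg1 (-1.80 ± 0.13) were lower as well. The enolase pair divided, with Eno1 lower (-0.74 ± 0.07) and Eno3 higher.

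Genes of tumour macrophages and alternative activation were lower in 11 of 12 cases tested (median -1.92), and Trem2 stood at 53.2, 75.8 and 58.8 CPM, against 45.4, 36.9 and 89.2 CPM (0.14 ± 0.21). Arg1, the arginine-degrading arginase, stood at 23.6, 4.13 and 117 CPM, against 245, 283 and 1067 CPM (-3.53 ± 0.20). Spp1, osteopontin, stood at 23.6, 24.8 and 259 CPM, against 349, 291 and 1371 CPM (-2.95 ± 0.17). At day 14, 1 cell held 64 of the 121 Arg1 UMIs and 1 cell 119 of the 269 Spp1 UMIs. Mrc1, the mannose receptor, had 12 UMIs in non-classical and 1079 in classical cells. Scaled to depth, the ratio of classical over non-classical was 20.2 (11.5 to 39.2). Without the library block 5 of these 12 genes were lower. The cytokine list had 3 of 14 genes higher and 9 lower. Ptgs2, the inducible cyclooxygenase (-1.14 ± 0.10), and Il1rn, the interleukin-1 antagonist (-0.91 ± 0.09), were lower, while Il1b (0.23 ± 0.06) and Tgfb1 (0.56 ± 0.08) were higher. The call of Il1b held under 10 of 19 alternatives. Of these 14 genes 1 was higher and 8 lower under the same exclusions for both gates, 1 and 6 with DESeq2, and none and 3 without the library block.

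Of 12 complement and coagulation genes, 1 was higher and 7 lower, the lower ones including the receptor C3ar1 (-2.36 ± 0.18). Scavenging and phagocytosis genes had 2 of 11 higher, the fatty acid and debris receptor Cd36 (0.93 ± 0.16) and Trem3 (1.66 ± 0.15), and 6 lower. Lysosome and lipid genes had 8 of 17 higher and 4 lower. The protease Ctsd was lower (-1.44 ± 0.10) and the cholesterol exporter Abcg1 higher (1.07 ± 0.15). Of 11 macrophage markers 7 were lower, and for C1qb and C1qc this follows from the exclusion of C1qa. Of 16 dissociation and stress genes, 3 were higher and 7 lower.

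Of 16 genes listed as classical identity, 10 were lower and 2 higher (median -0.44). F13a1 stood at 128, 152 and 109 CPM in non-classical cells, against 328, 475 and 502 CPM in classical cells (-1.74 ± 0.13), and Fn1, fibronectin, at 226, 288 and 299.8 CPM, against 523, 769 and 786 CPM (-1.34 ± 0.08). Plac8 (0.83 ± 0.04) and the peroxidase Gpx1 (0.77 ± 0.06) were higher. Lysozyme 2, Lyz2, stood at 10702, 14447 and 8789.9 CPM, against 11369, 13640.2 and 10426 CPM (-0.09 ± 0.05, adjusted p = 0.18, edgeR). DESeq2 and the fit without the library block called 6 and 4 of these 16 genes lower.

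Antigen presentation differed by small steps. Of 11 MHC class II and costimulation genes 4 were higher and 3 lower, all by under 1 on the log2 scale, and among the higher was their regulator Ciita (0.79 ± 0.14). Of 11 MHC class I genes, H2-K1 (0.38 ± 0.06), H2-D1 (0.37 ± 0.05) and B2m (0.25 ± 0.05) were higher. Of 16 interferon-gamma response genes 5 were higher, among them Irf1 (0.76 ± 0.08) and Gbp5 (0.84 ± 0.12), and 2 lower. Nos2, the inducible nitric oxide synthase, was among these lower genes, with 24 UMIs in non-classical and 758 in classical cells. Scaled to depth, the ratio of classical over non-classical was 7.08 (4.72 to 11.1). Of 12 type I interferon response genes none was higher and 5 were lower, such as Isg15 (-0.79 ± 0.12). These calls were few and moved with the fit. DESeq2 called 1 class II gene higher and none lower, 2 class I genes higher, 3 interferon-gamma genes higher and 1 lower, and 3 type I genes lower. Without the library block none of the 4 lists had a call. With the classical gate held to the same exclusions, 4 class II genes were higher and 1 lower, 3 interferon-gamma genes higher and 3 lower, and 8 type I genes lower.

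**Figure D4:**
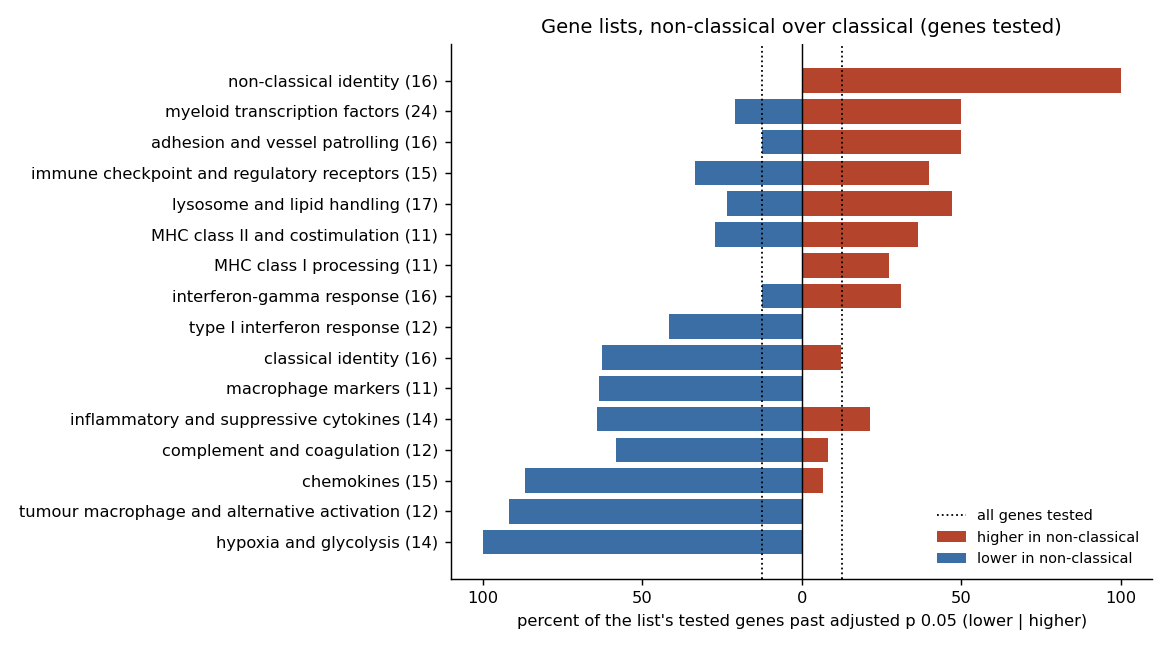
Percent of each list's tested genes that were higher (red, right) or lower (blue, left) in non-classical than in classical cells at an edgeR adjusted p under 0.05. Dotted lines give 12.8% and 12.4% for all genes tested, and the lists run from all 16 identity genes higher to all 14 hypoxia and glycolysis genes lower.

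The low end of the ranking was mixed. It held T cell genes, and also Ccl8, Ccl7, Mrc1 and Saa3, which were still low under the same exclusions for both gates. The 12 lowest by the naming rule were Flrt2, Ccl8, Serpinb6b, Cd8a, Cd28, Tnfrsf9, Ccl7, Gzmb, Mrc1, Il18r1, Cd3g and Saa3. Several of them are T cell genes. The classical gate does not exclude Cd3e, C1qa or Flt3, and the 12 markers of T and NK cells, all 12 of them above 0 in both gates, summed to 40.4, 41.3 and 28.9 CPM in non-classical cells, against 692, 189.9 and 359 CPM in classical cells. Under the same exclusions for both gates the classical sum was 32.4, 140.4 and 139 CPM. Cd8a had 1 UMI in non-classical and 261 in classical cells, a ratio of classical over non-classical of 58.5 (10.4 to 2321). With the classical gate held to the same exclusions, which left 319, 190 and 179 cells, Cd8a stood at 0.984, 0 and 0 CPM in non-classical cells, against 1.46, 1.44 and 0.465 CPM, and was too low to test, as were Serpinb6b, Cd28, Tnfrsf9, Il18r1 and Cd3g. Flrt2, a membrane adhesion protein, had no UMI in non-classical and 112 in classical cells, at least 8.37-fold lower by a floor of 3 UMIs over the gate.

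Under the same exclusions 815 genes were higher and 797 lower of 7705 tested. The identity list had all 16 genes higher, hypoxia and glycolysis all 14 lower, and chemokines 13 of 15 lower and none higher. The tumour macrophage list had 9 of 12 lower, classical identity 12 of 16, and complement and coagulation 10 of 12. The 12 lowest genes, named after this was seen, were then Ccl8, Ccl7, Saa3, Mrc1, Ccl2, Gzma, Mt2, Arg1, Spp1, Timp1, Sphk1 and Zfp395. Ccl8 was at 0, 0 and 0.964 CPM in non-classical cells, against 22.8, 13.9 and 7.44 CPM in these classical cells. Saa3, an acute-phase protein, was at 1.97, 0 and 4.82 CPM, against 18.1, 24.0 and 85.5 CPM. Cell cycle genes, 8 of 12 of which were lower against the full classical gate, had 1 of 6 lower.

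Sums over the marker lists of other cells differed between the gates. B cell markers summed to 109 to 142 CPM in non-classical cells, with Ms4a1 at 0, against 71.3 to 80.2 CPM in classical cells. Dendritic cell markers summed to 17.9 to 31.8 CPM, with Xcr1 and Siglech at 0, against 55.5 to 83.5 CPM. Under the same exclusions for both gates the classical sum was 14.3 to 27.4 CPM, below the non-classical sum in every library. Neutrophil markers summed to 430 CPM at day 3, 86.8 at day 7 and 94.5 at day 14, with Ly6g, Camp and Ngp at 0, against 171, 186 and 82.9 CPM. Under the same exclusions that classical sum was 213, 237 and 104 CPM. Most of the S100a8 and S100a9 UMIs in the non-classical sum at day 3 lay in single cells, as given below. Melanoma markers summed to 11.8 to 20.7 CPM, with Tyrp1 and Tyr at 0, against 26.2 to 26.8 CPM. Red cell and platelet markers summed to at most 39.5 CPM, with 6 of 8 at 0, against 64.1 to 335 CPM. With the same exclusions that classical sum was 19.2 to 176 CPM. Endothelial markers summed to 9.64 to 19.3 CPM, with Cdh5, Tek and Emcn at 0, against 9.78 to 12.8 CPM. Their part in the differences above was not tested.

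The comparison of days asks how the RNA of non-classical cells differed as time passed after transfer. With 1 library per day there is no test, and the 3 pairs of days share libraries. A gene was counted as higher or lower where the ratio of its CPM was at least 1.5-fold with an exact conditional interval that excludes 1, among genes with at least 20 UMIs in the 2 libraries. By this rule of size 6.65% of 6418 genes were higher and 6.51% lower at day 7 than at day 3, 3.06% of 6565 higher and 4.84% lower at day 14 than at day 7, and 6.54% of 6819 higher and 8.52% lower at day 14 than at day 3. The medians over all genes were 0.03, -0.01 and 0.04 on the log2 scale.

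Genes induced by interferon-gamma were lower at the later days. Of 15 measured, 14 were lower and none higher at day 7 than at day 3 (median log2 -1.46). At day 14, 9 of 15 were lower than at day 7 (-0.67) and 15 of 16 lower than at day 3 (-1.95). In classical cells, 13, 11 and 16 of 16 were lower in these 3 comparisons and 0, 1 and 0 higher. Of all genes measured in classical cells, 7.2%, 5.38% and 8.27% were lower and 4.63%, 4.99% and 5.07% higher. Cxcl10 stood at 733 CPM in non-classical cells at day 14, against 4313 CPM at day 3, 5.89-fold lower (5.45 to 6.37), and it was found in 39 of 111 cells, against 100 of 110. Cxcl9, a related Cxcr3 ligand, stood at 1724, 612 and 384 CPM at days 3, 7 and 14. In each library 1 cell held a large part of it, with 305 of 1751, 158 of 444 and 177 of 398 UMIs. Gbp2, a guanylate-binding protein of host defence, stood at 2853, 774 and 858 CPM, and was 3.68-fold lower at day 7 than at day 3 (3.36 to 4.04). The factor Irf1 stood at 895, 559 and 281 CPM. Cd274 was 2.70-fold lower at day 7 than at day 3 (2.25 to 3.26).

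Cxcl10 was lower at days 7 and 14 than at day 3 in each class of the Ly6c2 split. It stood at 3358, 122 and 1004 CPM at days 3, 7 and 14 in cells without Ly6c2, and at 4703, 1637 and 549 CPM in cells with 3 or more UMIs. In cells with 1 or 2 it stood at 3922, 2743 and 652 CPM. Single cells weigh on these values: 1 cell held 319 of the 1139 Cxcl10 UMIs at day 7 and 1 cell 253 of the 760 at day 14. The day 14 cell had no Ly6c2, since the other classes held only 186 and 218 Cxcl10 UMIs.

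Of 12 type I interferon response genes, 10 were lower at day 7 than at day 3 (median -0.89), 6 lower at day 14 than at day 7 (-0.70) and 11 lower at day 14 than at day 3 (-1.51), with none higher. In classical cells 2 of 13, 9 of 12 and 8 of 13 were lower. Rsad2, the antiviral protein viperin, stood at 237, 71.6 and 28.9 CPM in non-classical cells, against 272, 361 and 201 CPM in classical cells at days 3, 7 and 14, and 1 cell held 59 of its 241 non-classical UMIs at day 3. Isg15, a ubiquitin-like modifier, stood at 648, 251 and 164 CPM, against 833, 549 and 325 CPM. Whether the gates differ in this was not tested. In MHC class I processing 6 of 11 genes were lower at day 7 and 8 of 11 at day 14 than at day 3. Tap1, the peptide transporter, stood at 599.5, 324 and 232 CPM, while H2-K1 itself stood at 2677, 2284 and 1923 CPM, a step under 1.5-fold.

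**Figure D5:**
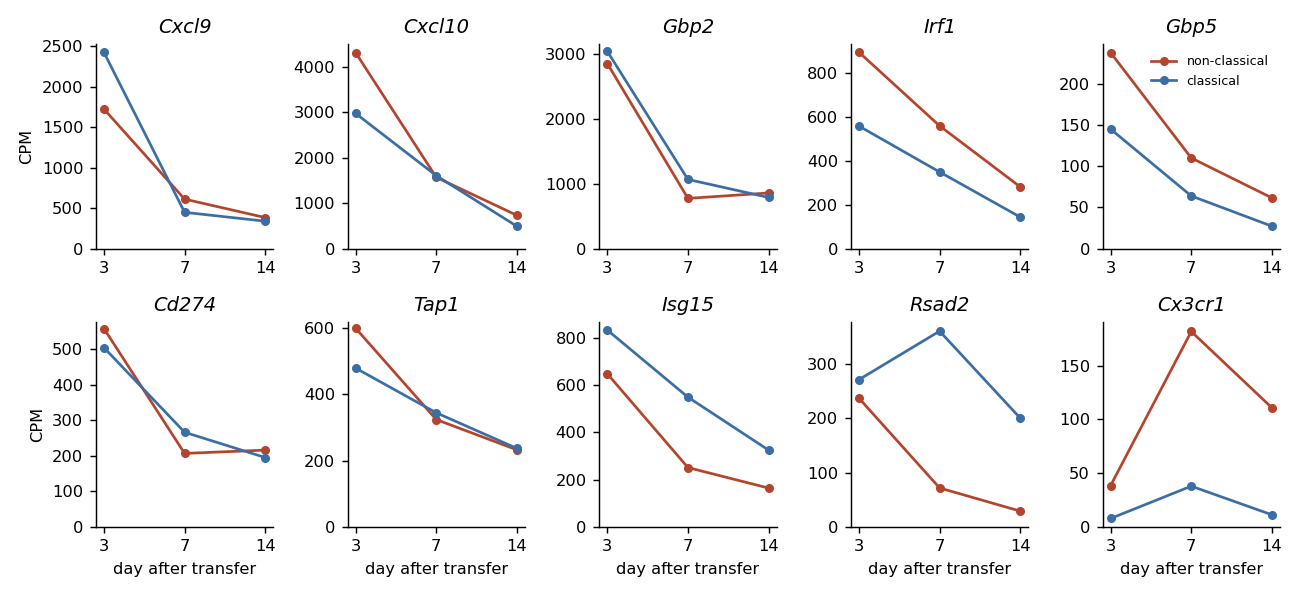
CPM of 10 genes at days 3, 7 and 14 in non-classical (red) and classical (blue) cells, 1 library per point. Cxcl10 is at 4313, 1569 and 733 CPM in non-classical cells, Rsad2 is lower at each later day in non-classical cells but at 361 CPM at day 7 in classical cells, and Cx3cr1 is highest at day 7 in both.

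By the naming rule, the 5 highest genes at day 7 over day 3 were Cx3cr1, Id3, Hspa1a, Hspa1b and Lyz1. Cx3cr1 was 4.74-fold higher (3.29 to 6.96), with UMIs in 49 of 81 cells, against 24 of 110, and the classical gate had a ratio of 4.89. Id3, an inhibitor of helix-loop-helix factors, was 6.32-fold higher (4.203 to 9.81), at 180 CPM, against 28.5 CPM. The heat shock genes rest on 1 cell each, which held 73 of 88 Hspa1a UMIs and 190 of 200 Hspa1b UMIs, and these near-identical genes share reads. Lyz1, a close copy of Lyz2, had 85 UMIs in 6 cells, against 3 at day 3. The 5 lowest were Serpina3f, Serpina3g, S100a8, S100a9 and Hspb1. Serpina3g, a protease inhibitor, stood at 78.5 CPM at day 7, against 605 CPM at day 3, 7.71-fold lower (5.87 to 10.3), with UMIs in 20 of 81 cells, against 72 of 110. Its near copy Serpina3f had 1 UMI, against 79. S100a8, S100a9 and Hspb1, of which the first 2 form the calprotectin of neutrophils and monocytes, each rest on 1 cell at day 3, with 103 of 113, 214 of 220 and 131 of 132 UMIs.

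At day 14 over day 7 the 5 highest were Arg1, Spp1, Cxcl2, Cxcl3 and Ero1l. Cxcl2, a neutrophil attractant, stood at 2779 CPM, against 836 CPM, 3.32-fold higher (3.04 to 3.63), with UMIs in 89 of 111 cells, against 36 of 81. Arg1 was 28.2-fold higher (9.43 to 139), from 13 cells, against 3. Spp1 was 10.5-fold higher (6.49 to 17.9). Cxcl3 was at least 31.7-fold higher, since it had 136 UMIs at day 14 and none at day 7, but 127 of the 136 lay in 1 cell. Ero1l, an oxidase of the endoplasmic reticulum, was 4.05-fold higher (2.72 to 6.24), with 63 of 168 UMIs in 1 cell. The 5 lowest were Id3, Tagap, Phf11d, Ifi205 and Parp14. Id3 was 3.34-fold lower (2.43 to 4.66), and the interferon-induced Ifi205 and Parp14 were 2.67-fold (2.03 to 3.53) and 2.66-fold lower (1.99 to 3.59). Tagap, a GTPase-activating protein, was 3.91-fold lower (2.12 to 7.60) and Phf11d 4.19-fold lower (2.24 to 8.31). In classical cells these 5 were lower by 1.78 to 2.43-fold.

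At day 14 over day 3 the 5 highest were Spp1, Cxcl3, Lyz1, Hspa1a and Hspa1b, of which 1 cell held 119 of 269, 127 of 136, 41 of 48, 92 of 148 and 93 of 166 UMIs at day 14. The 5 lowest were Tagap, Acod1, S100a8, S100a9 and Hspb1. Acod1, which makes the metabolite itaconate in activated macrophages, stood at 58.8 CPM, against 479 CPM, 8.15-fold lower (6.24 to 10.8), with UMIs in 17 of 111 cells, against 76 of 110. Tagap was 10.3-fold lower (6.04 to 18.8). Classical cells had 4.97-fold less Acod1 and 5.29-fold less Tagap.

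Of 15 identity genes measured, 3 were higher and 4 lower at day 7 than at day 3. Of 16 measured, 2 were higher and 1 lower at day 14 than at day 3. Nr4a1 stood at 746, 886 and 783 CPM at days 3, 7 and 14, with a day 14 over day 3 ratio of 1.05 (0.949 to 1.16). Cx3cr1 was 2.89-fold higher (1.99 to 4.27) and Fcgr4 1.87-fold lower (1.60 to 2.19). The inflammatory cytokine Tnf was 4.49-fold lower at day 7 than at day 3 (3.18 to 6.51). In hypoxia and glycolysis 4 of 14 genes were lower at day 7 than at day 3, and 1 was higher and none lower at day 14 than at day 3.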

How the data were processed

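Per the labels' protocols, viable CD45+ cells were loaded on a 10x Genomics Chromium 3' v3.1 kit; the labels name both a cell sorter and magnetic beads for the CD45 step. Cell Ranger 4.0.0 and the build mm10 are named in the submitters' processing notes. What the authors deposited are unnormalized whole-number UMI counts in 1 matrix per library; doublet removal before deposit is not given in the sources used here. Sample titles give the day of each library. UMIs were summed per gate and library. The gates were compared with edgeR 4.0.16 (glmQLFit and glmQLFTest, TMM scaling, low counts filtered by filterByExpr, library as block, R 4.3.3). The library number pairs the sums because both gates come from the same library. A difference between the gates that varies with day adds to the residual spread. The test was tested on simulated data. Days were compared by exact conditional Poisson intervals, and shares have Clopper-Pearson intervals. Doublets were scored with Scrublet in scanpy 1.11.5 and, as an alternative, removed from the top at a rate set by the barcodes per library. A library is 1 pool of 3 mice, so p-values set the difference between the gates against its spread over 3 pools of different days. edgeR moderates this spread with that of all genes tested. The median total degrees of freedom were 17.9, far more than the sums of 3 libraries give alone. Small p-values thus rest largely on spread shared between genes. Intervals and floors (3 counts) cover counting error only.

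Genes named are the gate genes and markers, the 12 highest and 12 lowest by log2 fold change among genes called with at least 50 UMIs, the 5 highest and 5 lowest of each pair of days by the interval bound nearest 1, and up to 5 members per list, without mitochondrial, ribosomal, predicted and receptor segment genes. The members, the 30 gene lists and the rules were chosen with earlier results of these data known. Alternatives were gates of 2 and 5 UMIs, 3000 UMIs per barcode, no mitochondrial filter, removal of shared barcodes or doublets, other classical gates, thinning to 1500 UMIs, RLE or no scaling, no count filter, DESeq2 1.42.0, no library block, each library left out, 50 UMIs between days, CPM without mitochondrial and ribosomal genes, each gene's top cell left out and per-cell means. Cells with under 3 Ly6c2 UMIs and a robust spread were added after seeing the data, as were the T cell gate, the Ly6c2 split and the genes named under the same exclusions. Gene IDs matched GENCODE M21 for 32235 of 32285 (99.8%), and promoter windows came from RefSeq.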

Additional observations from a re-analysis of the deposited data

Results flagged for a closer look

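In 13 cases over 11 genes, non-classical and classical cells lay on opposite sides between the same pair of days, each past the rule of size. Whether the gates differ in these was not tested, since each day has 1 library. Values are log2 ratios of CPM.

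At day 7 over day 3, Emp1 (-1.20 in non-classical cells, 0.63 in classical cells), the fatty acid binding protein Fabp4 (-1.04, against 1.44), Ifitm1 (-1.05, against 0.65) and Slfn4 (-1.18, against 0.82) were lower in non-classical and higher in classical cells. The kinase Prkch (0.83, against -0.63) and the chemokine Ccl5 (0.62, against -2.06) were the other way round. For Ccl5, 1 cell held 52 of the 104 non-classical UMIs at day 7, and for Emp1 1 cell held 15 of the 45 at day 3.

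At day 14 over day 7, Apoe (-0.86 in non-classical cells, 0.80 in classical cells), Ccl5 (-0.60, against 1.42) and the lipase Lpl (-0.65, against 0.94) were lower in non-classical and higher in classical cells. Areg, a growth factor, was the other way round (2.39, against -0.96). At day 14 over day 3, Areg (1.24, against -0.75) and Lyz1 (3.97, against -1.29) were higher in non-classical cells, and Ccl7 (-1.84, against 0.64) was lower. For Lpl, 1 cell held 29 of the 90 non-classical UMIs at day 14 and 1 cell 42 of the 99 at day 7. For Areg, 1 cell held 49 of 75 UMIs at day 14 and 1 cell 20 of 31 at day 3. For Lyz1, 1 cell held 41 of 48 UMIs at day 14, and for Ccl7 1 cell held 89 of 119 at day 3.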

How the results depend on the processing

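Against classical cells, 1072 genes were higher and 1041 lower in non-classical cells. Thinning each cell to 1500 UMIs gave 376 and 363, DESeq2 491 and 416, and the fit with no replicate block 381 and 333. The libraries pair the sums, and without the block the days add to the spread. Leaving out 1 library gave 762 to 1024 higher and 719 to 960 lower. Between days, members with under 3 Ly6c2 UMIs gave 225 genes higher and 276 lower at day 7 over day 3, and 251 higher at day 14 over day 3. A minimum of 50 UMIs gave 127 higher at day 14 over day 7, and a gate of 5 UMIs 283 higher at day 14 over day 3. With those members alone the log2 ratio of the share was 0.92 at day 14 over day 7 and 0.48 at day 14 over day 3, and per classical cell 1.09 and 1.32. The cause was not tested.

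Among the genes named by rank, 4 log2 values changed sign. Hspa1b at day 7 over day 3 was -0.000445 without its top cell in each library. With a gate of 2 UMIs, Hspa1a was -0.26 at day 7 and -0.042 at day 14 over day 3, and Lyz1 was -0.86 at day 14 over day 3. Of the other alternative values for these genes 695 kept their call or moved little, 35 moved and 7 lost their call. Of 3764 alternative values for the 202 other list genes called against classical cells, 3287 kept their sign and call, 465 kept their sign only, and 12, over 10 genes, had the other sign, none past the threshold. Cxcl10 was at -0.012 (adjusted p = 0.95, edgeR) with cells thinned to 1500 UMIs. Without the block, the lists had fewer calls, with 5 adhesion genes higher and none lower (8 and 2 with it), 7 transcription factors higher and 2 lower (12 and 5), 2 lysosome genes higher and 1 lower (8 and 4), no stress gene higher and 1 lower (3 and 7), and 4 checkpoint genes higher and 2 lower (6 and 5). Non-classical sums of 725811 to 1037323 UMIs limit what can be seen between days.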
